A study of Homo sapiens with 12 samples.

Results

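The replication-dependent histone genes are the clustered genes that supply newly made DNA with its linker histone (H1) and its core histones (H2A, H2B, H3 and H4). They were taken by name, as every row of the count table whose current symbol is H1-1 to H1-6 or has the form H2AC, H2BC, H3C or H4C with a number, leaving out H2BC12. Earlier results of these data were known when this set was chosen. This gave 66 of the 60666 gene IDs: 6 H1, 15 H2A, 17 H2B, 13 H3 and 15 H4 genes. The large cluster on the short arm of chromosome 6 holds 54 of them, the cluster at 1q21 holds 9, the cluster at 1q42 holds the pair H2AC25 and H2BC26, and H4C16 lies alone on 12p. Enough reads for a test were found for 52 members; the other 14 are accounted for at the end. H2AC18 and H2AC19 are not analysed here.

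These genes have no introns in their coding part and are transcribed in S phase at a nuclear structure called the histone locus body, where cyclin E with CDK2 acts on the coactivator NPAT. Their mRNA ends in a conserved stem-loop in place of a poly(A) tail. The stem-loop binding protein SLBP holds that end during processing, export and translation, and the mRNA is degraded when DNA synthesis stops. Some members can also give longer, polyadenylated transcripts from a site further downstream, which has been described in differentiating cells. A library made from total RNA after removal of ribosomal RNA, as here, can hold both forms.

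RNA was measured in KMS-11, KMS-12 and RPMI8226, which are established human multiple myeloma cell lines, each labelled wild type. Each line received 1 µM JQ1, a small molecule that displaces BET bromodomain proteins from acetylated histones, or the same volume of its solvent DMSO, for 72 h. Each of the 6 groups had 2 libraries, which makes 12. One line is spelled KMS-111 in the series' design text and KMS-11 in every sample label. The design text speaks of duplicates without saying whether they were separate cultures, so p-values measure the spread between libraries, which may be technical, and each line is a single line that stands only for itself. In such bulk samples, fewer cells in S phase and less histone mRNA per cell cannot be told apart.

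Total counts ran from 15424512 to 27366499 per library, and the 66 members took from 0.0815% to 0.427% of them. One group stood apart before any comparison: in KMS-11 with DMSO, the second library held 2.19 times the summed member level of the first, 1.71 times that of 40 S phase genes and 2.97 times that of 20 mitosis genes. A chi-square of the 2 libraries' counts divided by its degrees of freedom was 284.4 over the members in that group and between 3.99 and 23.2 in the other 5 groups. All 8 plasma cell markers had reads, with a summed level between 2338 and 7585 CPM (counts scaled to a common library total) per library. Summed markers of B cells (7 genes) were between 0.505 and 43.0 CPM, of T and NK cells (7 genes, NKG7 at 0 reads) between 1.47 and 14.8 CPM, of myeloid cells (5 genes) between 0.641 and 26.4 CPM, and of stromal and epithelial cells (7 genes) between 5.35 and 68.9 CPM; their part in the results was not tested.

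The stem-loop that marks these mRNAs could be found in the GENCODE 29 transcript models of 24 of the 64 members that have one and was not found in the other 40 models. Many of these 40 are short, such as those of H4C1 (312 bases), H2BC10 (381), H2AC4 (393) and H3C7 (411), but that of H3C8 has 2411. The search asked for a fully paired 6-base stem from GG to CC around a 4-base loop of T, T, any base, and T or C. A stem-loop of another form, or one beyond the end of a model, could not be found. A miss therefore does not show that the RNA lacks it. The form in 15 models, all of them H2A, H2B or H3 genes, has an AGAGCC right arm, 5 H4 models have an AGGGCC arm, 3 other H4 models have that arm with another loop, and H2AC11 has a left arm of the first form with a right arm of the other. In the shortest model that holds it, the stem-loop is followed by 1729 bases in H2BC21, 1761 in H2AC11 and 194 in H4C14. In H2BC13 and H4C8 it is followed by 40 and 18. Its presence in a model therefore does not separate short transcripts from long ones. A pair of models of the first form and 1 of each other form are shown with 5 bases on either side, with the stem-loop in capitals.
H2BC21: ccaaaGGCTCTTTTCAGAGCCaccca
H2BC13: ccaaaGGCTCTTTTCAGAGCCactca
H4C8: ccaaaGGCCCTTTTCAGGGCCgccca
H4C14: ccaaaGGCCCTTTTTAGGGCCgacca
H2AC11: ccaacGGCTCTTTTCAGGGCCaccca

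The 250 bases before the RefSeq start could be searched for 61 members (GRCh38.p14); H2AC12, H3C11, H3C12, H4C1 and H4C3 had no entry, and the entry nearest to the GENCODE 29 start was used for the 3 members with 2. Searched on both strands, CCAAT occurred in 51 of the 61 windows, in all of those of H1, H2A, H2B and H3 genes and in 3 of 13 of H4 genes, against 32% of the same 250 bases of all 35116 promoters. TATAAA occurred in 40 of 61 (10.7% of all promoters). The octamer ATTTGCAT occurred in 13 of 17 H2B and 11 of 14 H2A windows and in no H1, H3 or H4 window (1.63% of all promoters). AAACACA occurred in the windows of all 6 H1 genes and of no other member (4.82% of all promoters). H2A and H2B genes often start back to back, so a pair's windows overlap and share their matches. Given here are the 120 bases before the start of genes whose responses are described next, with matches in capitals: a pair in which both genes responded in every line, a pair whose genes went different ways in KMS-11, and 1 gene each of H1, H3 and H4. The capitals that open the H2BC4 sequence are the end of an octamer that begins before the part shown.
H2BC13, chr6:27807930-27808049, minus strand: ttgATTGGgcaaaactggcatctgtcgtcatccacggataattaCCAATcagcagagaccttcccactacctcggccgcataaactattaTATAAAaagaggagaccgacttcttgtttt
H2AC13, chr6:27808053-27808172, plus strand: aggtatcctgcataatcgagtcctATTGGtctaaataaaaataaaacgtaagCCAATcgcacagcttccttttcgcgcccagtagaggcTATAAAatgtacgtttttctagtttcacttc
H2BC4, chr6:26123927-26124046, minus strand: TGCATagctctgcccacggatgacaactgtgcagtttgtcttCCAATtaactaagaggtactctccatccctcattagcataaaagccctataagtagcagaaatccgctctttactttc
H2AC6, chr6:26124052-26124171, plus strand: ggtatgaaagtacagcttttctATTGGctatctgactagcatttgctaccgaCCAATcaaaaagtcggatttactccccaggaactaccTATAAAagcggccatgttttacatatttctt
H1-2, chr6:26056471-26056590, minus strand: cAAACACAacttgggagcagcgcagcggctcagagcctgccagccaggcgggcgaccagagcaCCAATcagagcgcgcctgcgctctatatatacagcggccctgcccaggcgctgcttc
H3C2, chr6:26032100-26032219, minus strand: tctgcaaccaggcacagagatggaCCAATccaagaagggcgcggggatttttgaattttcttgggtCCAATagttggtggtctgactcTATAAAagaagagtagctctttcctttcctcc
H4C8, chr6:26285535-26285654, minus strand: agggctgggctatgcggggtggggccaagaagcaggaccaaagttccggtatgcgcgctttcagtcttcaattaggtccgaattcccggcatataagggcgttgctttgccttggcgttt

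With JQ1, many histone genes fell in KMS-11 and KMS-12 and many rose in RPMI8226. The summed level of the 66 members in KMS-12 was 3473 and 3185 CPM with DMSO and 1133 and 1135 CPM with JQ1, 2.93 times lower by the means. In RPMI8226 it was 1373 and 1099.5 CPM with DMSO and 3139 and 2569 CPM with JQ1, 2.31 times higher. In both lines the JQ1 libraries lay on 1 side of the DMSO libraries. In KMS-11 the sums were 1294 and 2835 CPM with DMSO and 1307 and 1161 CPM with JQ1, and the first DMSO library lay between the JQ1 libraries. By the means the KMS-11 sum was 1.67 times lower with JQ1, but the first DMSO library alone was 1.05 times the JQ1 mean. All 4 KMS libraries with JQ1 lay within the range of the RPMI8226 libraries with DMSO. The 5 members with the most reads took 35.4% and 32.3% of the member reads in KMS-11 with DMSO and 48.6% and 50.8% with JQ1. In KMS-12 these shares were 34.1% and 34.0% with DMSO and 44.5% and 45.2% with JQ1, and in RPMI8226 39.3% and 38.6%, and 37.5% and 37.0%.

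Each gene was tested with edgeR's quasi-likelihood test in a single fit of the 6 groups, over 23493 genes, and a call was an adjusted p (Benjamini-Hochberg) under 0.05. In KMS-11, 25 of the 52 tested members fell (21.2% of all tested genes did) and 1 rose (17.3% of all genes), with a median log2 fold change of -1.26 against 0 over all genes. In KMS-12, 34 fell (25.7% of all genes) and 3 rose (20.2%), with a median of -1.78 against -0.06. In RPMI8226, 24 rose (13.6% of all genes) and none fell (18.6%), with a median of 1.29 against -0.03; none was lower there at an unadjusted p under 0.05, by DESeq2 or by limma-voom. One of the 24, H3C4, passed the filter on low counts only through the RPMI8226 libraries with JQ1, so its call there supports nothing; without it 23 of 51 rose in RPMI8226, with a median of 1.25. Leaving out members at or under 3 reads in both groups, and setting a group without reads at its bound, the medians were -1.26 over 50 members in KMS-11, -1.84 over 51 in KMS-12 and 1.34 over 50 in RPMI8226.

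Counted by whether the 2 JQ1 libraries lay outside the 2 DMSO libraries, 29 of the 52 were lower and 8 higher in KMS-11 (33.5% and 30.0% of all tested genes). In KMS-12, 44 were lower and 4 higher (40.6% and 31.6% of all genes). In RPMI8226, 45 were higher and 1, H2BC26, was lower (30.1% and 35.7% of all genes). The number of calls moved with single libraries. Without the first or the second KMS-11 DMSO library, 36 or 22 members fell and 1 or 4 rose in KMS-11, while 40 or 39 rose in RPMI8226; the 3 lines share 1 estimate of the spread in the fit. Without the first or second KMS-11 JQ1 library, 10 or 9 fell in KMS-11, and without RPMI8226's own DMSO libraries or its first JQ1 library, 15, 10 and 11 rose there.

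**Figure D1:**
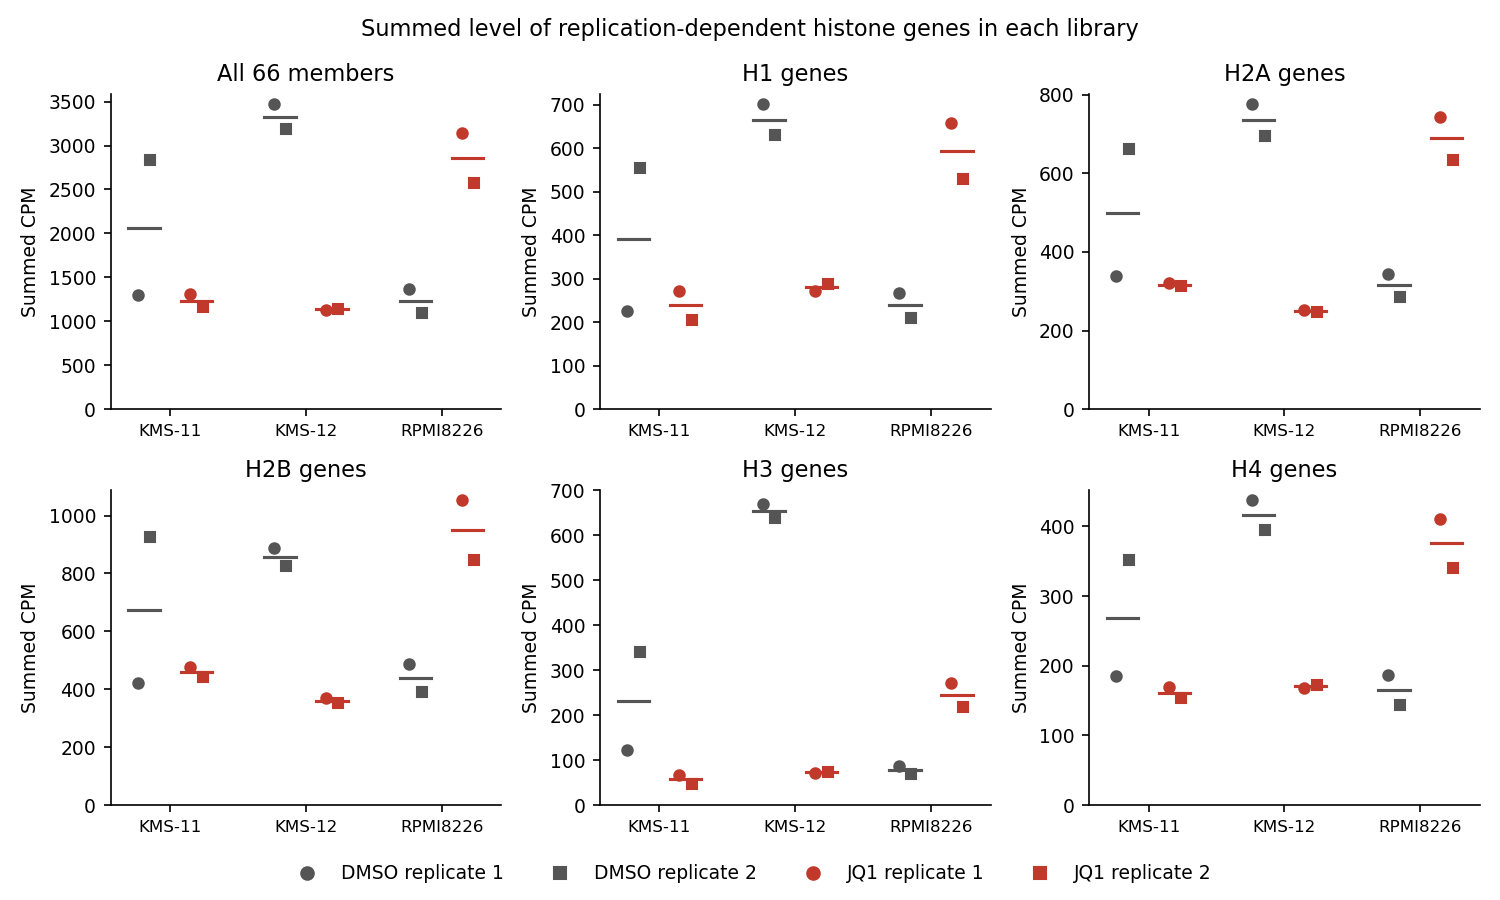
Summed level (CPM, linear axis from 0) of all 66 members and of each histone type in the 12 libraries; circles and squares are replicates 1 and 2, and bars are the means of 2. In KMS-12 the JQ1 points lie below the DMSO points in every panel and in RPMI8226 above them, while in KMS-11 the first DMSO library lies apart from the second and within or near the range of the JQ1 libraries except for H3.

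By the calls in the 3 lines, 9 members fell in both KMS lines and rose in RPMI8226: H2AC12, H2AC13, H2AC17, H2AC21, H2BC7, H2BC13, H3C2, H4C2 and H4C3. A further 13 fell in both KMS lines without a call in RPMI8226, and 6 fell in KMS-12 and rose in RPMI8226 without a call in KMS-11. In RPMI8226 alone 6 members were called, all higher (5 without H3C4), and in KMS-12 alone 8, of which H4C14 and H1-6 were higher. Some members had few or no reads in another line, so a missing call there does not show a missing response. Among them are H2BC9, H2BC14 and H2AC16 of the 13 in RPMI8226 with DMSO. Of those called in KMS-12 alone, H3C7 was silent in RPMI8226, and H2AC25 and H2BC26 were silent or nearly so in KMS-11. H2AC6 rose in KMS-11 and RPMI8226, and H2BC6 rose in KMS-12 and RPMI8226. H2BC21, H2AC7, H1-3, H4C12 and H4C16 were called in none. This grouping moved with single libraries: the first group had 27 and 18 members without the first and the second KMS-11 DMSO library, 4 or 5 without a KMS-12 library, and 2 or 3 without a KMS-11 JQ1 or an RPMI8226 library.

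**Figure D2:**
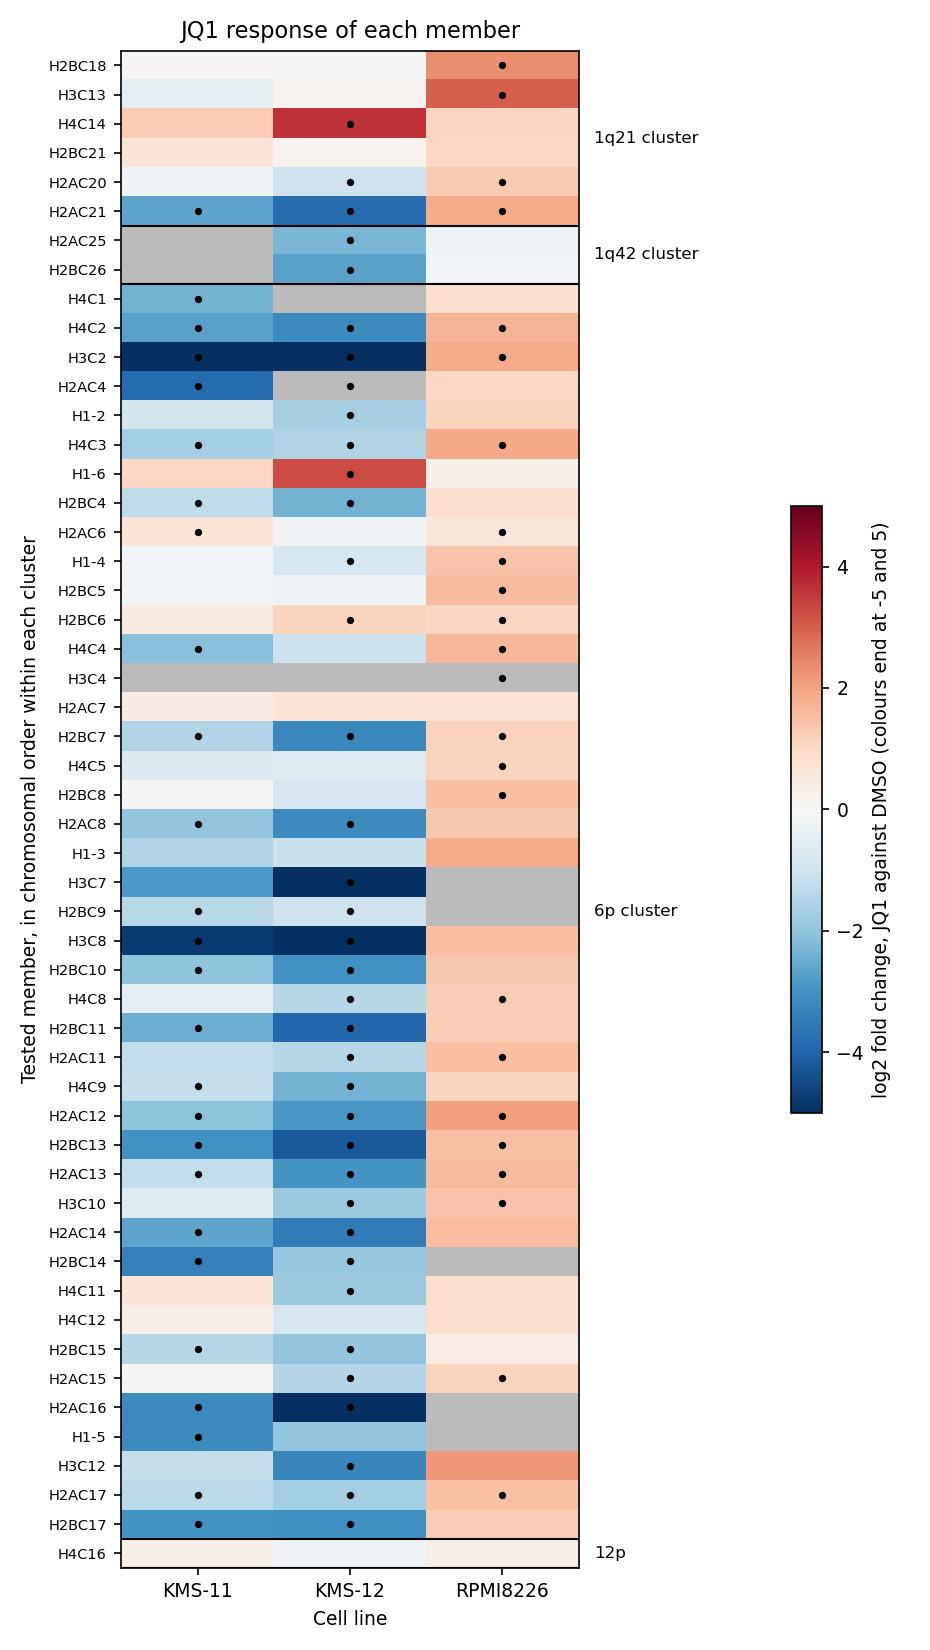
Log2 fold change with JQ1 of the 52 tested members (rows, in chromosomal order within each cluster) in the 3 lines (columns); colours end at -5 and 5, a dot marks an edgeR adjusted p under 0.05, and grey marks a group with 3 reads or fewer. Blue dominates the KMS-11 and KMS-12 columns of the chromosome 6 cluster and red the RPMI8226 column, and the upper rows, from 1q21, are mostly pale in the KMS lines.

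The H1 genes code for linker histones, which bind the DNA between nucleosomes. Their summed level in KMS-12 was 701 and 631 CPM with DMSO and 271 and 289 CPM with JQ1, 2.38 times lower. In RPMI8226 it was 268 and 209 and 659 and 528 CPM, 2.49 times higher. Of the 5 tested, 1 fell in KMS-11 (H1-5), 2 fell and 1 rose in KMS-12, and 1 rose in RPMI8226. H1-4, which took 8.77% and 7.99% of the member reads of KMS-12 with DMSO, had 305 and 255 CPM with DMSO and 140.0 and 160.2 CPM with JQ1 in KMS-12, a log2 fold change of -0.90 (SE 0.27, adjusted p = 0.0304). In RPMI8226 it rose from 101 and 80.8 to 269.6 and 223 CPM, 1.44 (SE 0.28, adjusted p = 0.00611). In KMS-11 its 109.7 and 195 CPM with DMSO enclosed the 154 and 124 CPM with JQ1, a change of -0.13 (SE 0.27, adjusted p = 0.778). The groups thus separated in KMS-12 and RPMI8226 and overlapped in KMS-11.

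H1-2, the other H1 gene with many reads, fell in KMS-12 from 300.3 and 279 to 90.3 and 94.5 CPM, -1.65 (SE 0.46, adjusted p = 0.0254). Its JQ1 libraries in RPMI8226, 297 and 241 CPM, lay above the DMSO libraries, 141 and 110.0 CPM, and the change missed the threshold (adjusted p = 0.116). H1-3 had a log2 fold change of -1.51 in KMS-11, of -1.11 in KMS-12 and, in RPMI8226, of 1.85, and was not called in any (adjusted p = 0.102, 0.173 and 0.0566). H1-6, the testis linker histone, went the other way at a low level: in KMS-12 it had 0.0356 and 0.146 CPM with DMSO and 1.21 and 0.631 CPM with JQ1, 3.28 (SE 0.67, adjusted p = 6.01e-04). H1-5 fell in KMS-11 from 18.8 and 79.2 to 6.61 and 4.21 CPM, -3.17 (SE 0.73, adjusted p = 0.0199), and had 1 read in all in RPMI8226.

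H2A forms, with H2B, the dimers that flank the H3-H4 tetramer of the nucleosome. Of the 14 tested, 8 fell and 1 rose in KMS-11, 12 fell in KMS-12, and 8 rose in RPMI8226. H2AC21, at 1q21, moved in all 3 lines. It fell in KMS-11 from 36.8 and 70.9 to 7.42 and 9.70 CPM, -2.66 (SE 0.31, adjusted p = 9.45e-05). In KMS-12 it fell from 31.7 and 32 to 1.62 and 2.89 CPM, -3.82 (SE 0.36, adjusted p = 1.37e-05). In RPMI8226 it rose from 9.53 and 7.78 to 33.1 and 29.3 CPM, 1.85 (SE 0.31, adjusted p = 0.00133). The groups did not overlap in any line. H2AC21 overlaps BOLA1 on the other strand, and the strand setting of the counting is not given in the sources used here. H2AC16 fell in KMS-11 from 6.35 and 19.3 to 1.28 and 1.51 CPM, -3.19 (SE 0.46, adjusted p = 1.84e-04), and in KMS-12 from 19.2 and 18.8 to 0.303 and 0.316 CPM, -5.92 (SE 0.58, adjusted p = 4.93e-06). RPMI8226 had 1 read of H2AC16 with DMSO and 14 with JQ1, so its change there has little depth behind it.

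H2AC20, H2AC21's neighbour, fell in KMS-12 from 112 and 94.5 to 46.8 and 53.8 CPM, -1.04 (SE 0.17, adjusted p = 2.88e-04), and rose in RPMI8226 from 44.2 and 42.2 to 115 and 102 CPM, 1.33 (SE 0.17, adjusted p = 9.60e-05). In KMS-11 its groups overlapped, 100.2 and 150.1 CPM with DMSO and 97.3 and 117 CPM with JQ1. H2AC11 had log2 fold changes of -1.23 (SE 0.43, adjusted p = 0.0647) in KMS-11, -1.45 (SE 0.43, adjusted p = 0.0313) in KMS-12 and 1.49 (SE 0.42, adjusted p = 0.0374) in RPMI8226. H2AC6 was the only H2A gene called higher in KMS-11. It rose in KMS-11 from 61.8 and 77.4 to 115 and 106 CPM, 0.67 (SE 0.13, adjusted p = 5.56e-04), and in RPMI8226 from 114 and 94.5 to 173 and 142 CPM, 0.60 (SE 0.13, adjusted p = 0.00183). In KMS-12 it had 128 and 113 CPM with DMSO and 112 and 101 CPM with JQ1, -0.18 (SE 0.13, adjusted p = 0.275). H2AC4 went from 129 reads in KMS-12 with DMSO to none with JQ1, which against a floor of 3 reads over the group is at least 30.1-fold lower.

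Among the H2B genes, 9 of 15 tested fell in KMS-11, 10 fell and 1 rose in KMS-12, and 6 rose in RPMI8226. H2BC13 was called in every line. In KMS-11 it fell from 14 and 30.4 to 3.19 and 2.13 CPM, -3.04 (SE 0.34, adjusted p = 8.44e-06). In KMS-12 it fell from 15.4 and 17.2 to 0.707 and 1.05 CPM, -4.21 (SE 0.39, adjusted p = 1.15e-06). In RPMI8226 it rose from 3.85 and 3.72 to 11.8 and 9.27 CPM, 1.48 (SE 0.33, adjusted p = 0.00332). With DMSO the highest H2BC13 library was KMS-11 replicate 2 and the lowest were the RPMI8226 libraries, and with JQ1 the RPMI8226 libraries were the highest. H2BC4 fell in KMS-11 from 93.2 and 195 to 56.7 and 61.4 CPM, -1.29 (SE 0.31, adjusted p = 0.0142), and in KMS-12 from 234 and 220.2 to 46.4 and 42.9 CPM, -2.35 (SE 0.32, adjusted p = 7.00e-04); in RPMI8226 its change was 0.83 (SE 0.31, adjusted p = 0.0813).

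H2BC21, the H2B gene of 1q21 with a transcript model of 2194 bases, was not called in any line. It had 73.3 and 145 CPM with DMSO and 175 and 168 CPM with JQ1 in KMS-11, 0.65 (SE 0.32, adjusted p = 0.163), and 81.4 and 66.5 and 86.1 and 80.8 CPM in KMS-12, 0.17 (SE 0.32, adjusted p = 0.733), where the sign turned with library size alone. In RPMI8226 it went from 109 and 84.6 to 226 and 168 CPM, 1.02 (SE 0.32, adjusted p = 0.05), just short of the threshold. Its share of the members' reads in KMS-11 went from 5.66% and 5.13% to 13.4% and 14.5%, and in KMS-12 from 2.34% and 2.09% to 7.60% and 7.12%. In RPMI8226 the share was 7.97% and 7.69% with DMSO and 7.21% and 6.53% with JQ1. H2BC5 likewise had changes of -0.14 and -0.19 in KMS-11 and KMS-12 without a call and rose in RPMI8226 from 74.7 and 49.4 to 207 and 159 CPM, 1.56 (SE 0.34, adjusted p = 0.0119). H2BC6 rose in KMS-12 from 4.20 and 4.70 to 10.7 and 8.74 CPM, 1.13 (SE 0.20, adjusted p = 1.92e-04), and in RPMI8226 from 5.04 and 4.51 to 10.6 and 9.62 CPM, 1.08 (SE 0.21, adjusted p = 5.94e-04).

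**Figure D3:**
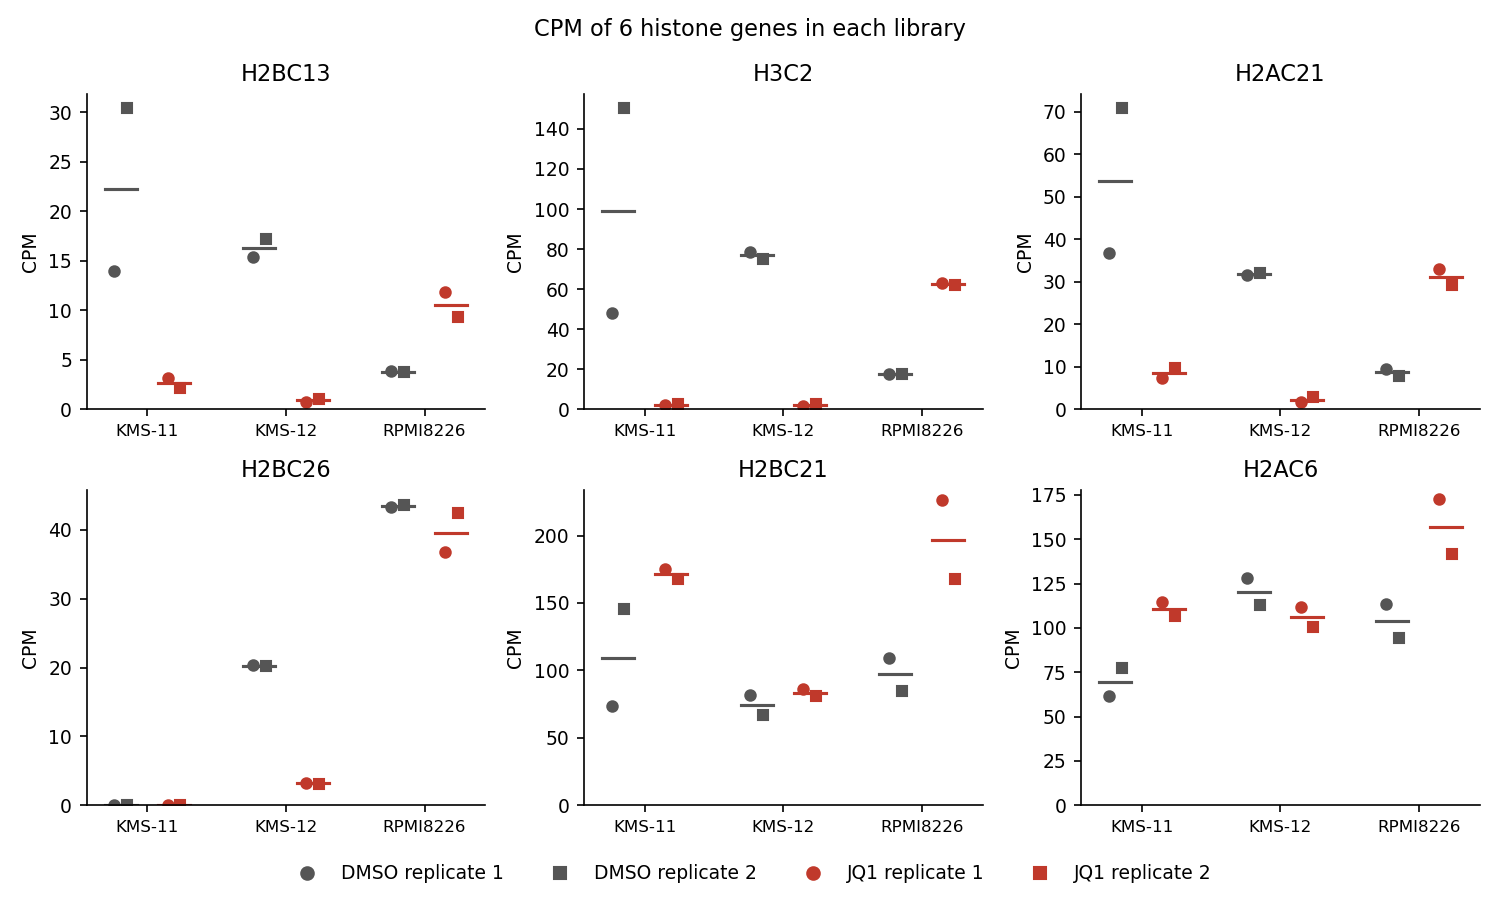
CPM (linear axes from 0) of 6 members in the 12 libraries; circles and squares are replicates 1 and 2, and bars are the means of 2. H2BC13, H3C2 and H2AC21 fall in both KMS lines and rise in RPMI8226, H2BC26 is near 0 in KMS-11, falls in KMS-12 and stays near its DMSO level in RPMI8226, and H2BC21 and H2AC6 do not fall in KMS-11.

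H3, which with H4 forms the tetramer at the centre of the nucleosome and carries many of its modifications, had the largest difference in summed level of the 5 types in each line. The summed level of the 13 H3 genes in KMS-11 was 122 and 342 CPM with DMSO and 68.2 and 46.6 CPM with JQ1, 4.04 times lower, and here the groups did not overlap. In KMS-12 it was 671 and 639.7 against 72.4 and 74.3 CPM, 8.93 times lower, and in RPMI8226 88.1 and 68.4 against 271 and 219 CPM, 3.13 times higher. With the first KMS-11 DMSO library alone the H3 sum was 2.12 times the JQ1 mean there. The KMS-11 sums of the other 4 types were between 1.47 and 1.66 times lower by the means, but between 0.920 and 1.14 times the JQ1 mean with the first DMSO library alone. The sums of these 4 types differed between 2.37 and 2.95 times in KMS-12 and between 2.17 and 2.49 times in RPMI8226. Of the 7 H3 genes tested, 2 fell in KMS-11, 5 fell in KMS-12 and 4 rose in RPMI8226 (3 of 6 without H3C4). H3C2 fell in KMS-11 from 47.9 and 150.3 to 2.19 and 2.36 CPM, -5.44 (SE 0.64, adjusted p = 6.25e-04). In KMS-12 it fell from 78.6 and 75.2 to 1.41 and 2.37 CPM, -5.35 (SE 0.65, adjusted p = 5.66e-04). In RPMI8226 it rose from 17.6 and 17.3 to 63.2 and 62.2 CPM, 1.84 (SE 0.50, adjusted p = 0.0318). All 4 KMS libraries with JQ1 lay below 3 CPM for H3C2, under every DMSO library.

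H3C8 fell in KMS-11 from 13.2 and 43.1 to 1.33 and 0.617 CPM, -4.80 (SE 0.82, adjusted p = 0.00408), and in KMS-12 from 177 and 165 to 2.78 and 6.21 CPM, -5.25 (SE 0.68, adjusted p = 8.29e-04). H3C10 had the smaller changes -0.66 (SE 0.36, adjusted p = 0.206) in KMS-11 and -1.84 (SE 0.36, adjusted p = 0.00487) in KMS-12, and rose in RPMI8226, 1.41 (SE 0.36, adjusted p = 0.0234). H3C13, a 1q21 gene for the H3.2 protein, had 12.4 and 26.8 CPM with DMSO and 17.3 and 11.6 CPM with JQ1 in KMS-11, and 7.98 and 8.63 and 9.24 and 9.58 CPM in KMS-12, without a call in either and with a sign in KMS-12 that turned with library size alone. It rose in RPMI8226 from 2.42 and 2.15 to 21.1 and 14.7 CPM, 2.97 (SE 0.37, adjusted p = 9.13e-05). Of the 50-base windows of its model, 80.4% also occur in another annotated gene, so its counts depend on how shared reads were treated. H3C4 had 0 reads in RPMI8226 with DMSO and 17 and 8 with JQ1, and at most 6 in any other library. It is called higher there, at least 9.70-fold against a floor of 3 reads over the group, but a gene that is tested only because of the group in which it is high had to differ. H3C4 overlaps the annotated gene AL031777.3 on its strand. Of its 50-base windows, 100% also occur in another annotated gene, most often AL031777.3, so reads of the 2 cannot be told apart.

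Nearly all H4 genes code for the same protein. Of the 11 tested, 5 fell in KMS-11, 5 fell and 1 rose in KMS-12, and 5 rose in RPMI8226. H4C8 fell in KMS-12 from 96.0 and 93.1 to 34.2 and 36.0 CPM, -1.43 (SE 0.25, adjusted p = 0.00130), and rose in RPMI8226 from 56.9 and 43.9 to 137 and 101 CPM, 1.24 (SE 0.24, adjusted p = 0.00450). In KMS-11 its 57.9 and 97.5 CPM with DMSO lay just above the 57.7 and 57.0 CPM with JQ1, and the change, -0.44 (SE 0.24, adjusted p = 0.194), was not called. H4C5 rose in RPMI8226, 1.13 (SE 0.29, adjusted p = 0.0196), and had changes of -0.67 and -0.65 without a call in KMS-11 and KMS-12. H4C16, the single gene on 12p, had 36.6 and 35.4 CPM with DMSO and 45.7 and 41.4 CPM with JQ1 in KMS-11, 37.4 and 35.2 and 32.9 and 31.4 CPM in KMS-12, and 20.6 and 21.1 and 27.1 and 24.1 CPM in RPMI8226. Its log2 fold changes of 0.27, -0.18 and 0.30 were small and not called. H4C14 rose in KMS-12 from 0.178 and 0.182 to 2.22 and 2.37 CPM, 3.63 (SE 0.62, adjusted p = 1.12e-04). Its model shares 97.5% of its 50-base windows with another annotated gene and overlaps an H3 gene on the other strand, so these few reads are of uncertain origin.

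By gene cluster, the counts were as follows. In the chromosome 6 cluster, 24 of 43 tested members fell and 1 rose in KMS-11, 30 fell and 2 rose in KMS-12, and 20 rose in RPMI8226 (19 of 42 without H3C4). Its summed level in KMS-11 was 999 and 2330.1 CPM with DMSO and 905 and 757 CPM with JQ1, 2.00 times lower by the means and 1.20 times lower with the first DMSO library alone. It was 3.36 times lower in KMS-12 and 2.39 times higher in RPMI8226. At 1q21, 1 of 6 tested members fell in KMS-11, 2 fell and 1 rose in KMS-12, and 4 rose in RPMI8226. The 1q21 sum was 258 and 469 CPM with DMSO and 356 and 363 CPM with JQ1 in KMS-11, and 303 and 268 against 211 and 210.2 CPM in KMS-12, 1.36 times lower. In RPMI8226 it was 181 and 150.5 against 476 and 378 CPM, 2.58 times higher. H2BC18, also at 1q21, had changes of 0.06 and -0.11 in KMS-11 (where the sign turned with library size alone) and KMS-12 and a rise of 2.34 (SE 0.33, adjusted p = 0.00127) in RPMI8226. With the first DMSO library alone the 1q21 sum of KMS-11 with DMSO was 0.718 times the JQ1 mean. The difference between clusters was not tested. Within 1q21, H2AC21 fell in both KMS lines and H2BC21 was not called.

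Counts by type and cluster were read against all tested genes, of which 21.2% fell in KMS-11 and 25.7% in KMS-12, 20.2% rose in KMS-12 and 13.6% rose in RPMI8226. The H1 counts, the H3 count in KMS-11 and the 1q21 counts in the KMS lines rest on 1 or 2 genes each and are not read as differing from these shares. Single libraries moved the counts of each type. Without the first and the second KMS-11 DMSO library, 3 and 1 of the H1 genes fell in KMS-11, 10 and 7 of the H2A, 11 and 8 of the H2B, 5 and 3 of the H3 and 7 and 3 of the H4 genes. The count in the chromosome 6 cluster was then 32 and 21, and at 1q21 it was 4 and 1. Over all 12 fits with 1 library left out, the number that fell in KMS-11 ranged from 0 to 3 for H1, 2 to 10 for H2A, 3 to 11 for H2B, 2 to 5 for H3 and 2 to 7 for H4. The number that rose in RPMI8226 ranged from 0 to 3, 4 to 12, 3 to 11, 2 to 6 and 1 to 8 in the same order. In the chromosome 6 cluster 8 to 32 fell in KMS-11 and 6 to 34 rose in RPMI8226, and at 1q21 the ranges were 1 to 4 and 4 to 5.

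At 1q42, the pair differed by line. H2BC26 had 2 reads in the 4 KMS-11 libraries together and H2AC25 had none. In KMS-12, H2BC26 fell from 20.3 and 20.2 to 3.28 and 3.05 CPM, -2.68 (SE 0.19, adjusted p = 7.99e-09), and H2AC25 fell from 16.7 and 12.2 to 3.23 and 2.68 CPM, -2.29 (SE 0.24, adjusted p = 9.93e-07). In RPMI8226 the level was higher to begin with and was not called as changed: H2BC26 had 43.3 and 43.7 CPM with DMSO and 36.8 and 42.4 CPM with JQ1, -0.14 (SE 0.16, adjusted p = 0.556), and H2AC25 had 30.1 and 26.3 and 27.6 and 19.8 CPM, -0.25 (SE 0.20, adjusted p = 0.392). These 2 genes and the nearly silent H2BC9 and H1-5 are the only tested members with a fitted change below 0 in RPMI8226.

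Histone genes that start back to back allow a comparison of neighbours that share a promoter region. There were 11 such pairs with starts within 1000 bases, between 218 and 356 bases apart, and 10 had both genes tested; H2BC17 is in 2 of them. In RPMI8226 the 2 genes changed with the same sign in all 9 pairs with over 3 reads in each group, and their log2 fold changes differed by a median of 0.242. In KMS-12, 8 of 10 pairs and in KMS-11, 6 of 9 had the same sign, with median differences of 1.49 and 1.80. The KMS-11 median is the difference of H3C12 and H2BC17, which had -1.17 and -2.97 there. Signs were mostly alike over the members at large. In RPMI8226, 47 of 50 members lay above 0, and 44 of 51 in KMS-12 and 38 of 50 in KMS-11 lay below 0. Genes that are not paired would therefore often share a sign too, and the sign counts are not read as a result about pairs. H2BC4 and H2AC6, whose upstream sequences are given above, had -1.29 and 0.67 in KMS-11 and -2.35 and -0.18 in KMS-12. H2BC11 and H2AC11 had -2.43 and -1.23 in KMS-11 and -3.92 and -1.45 in KMS-12. H2BC8 and H2AC8 had -0.09 and -1.98, and -0.85 and -3.18. In RPMI8226 the same 3 pairs had 0.83 and 0.60, 1.25 and 1.49, and 1.51 and 1.35. The differences within pairs were not tested.

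**Figure D4:**
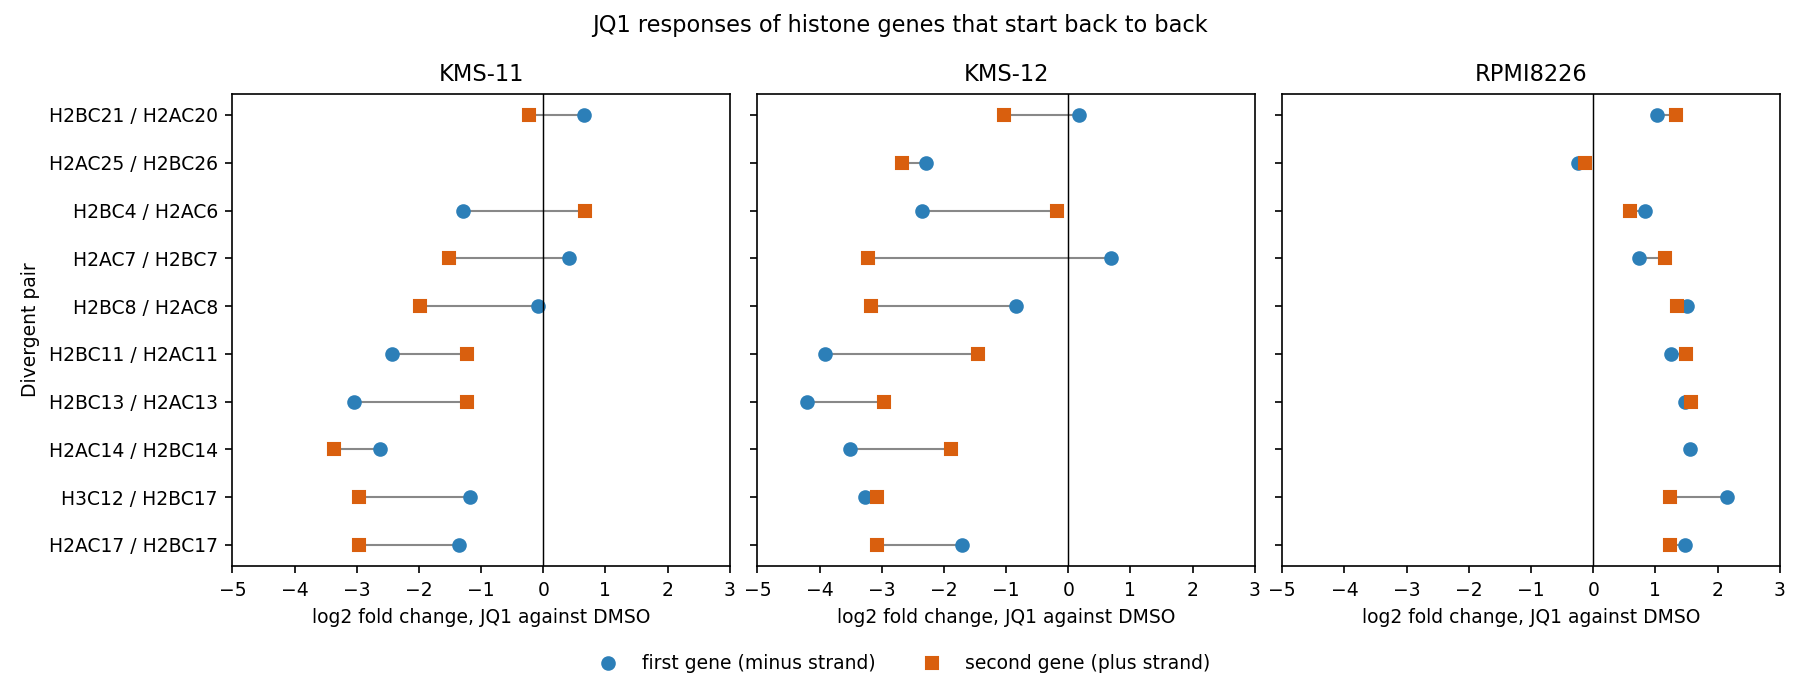
Log2 fold change with JQ1 of both genes of the 10 tested back-to-back pairs, by line; a line joins the 2 genes, and a gene with 3 reads or fewer in a group is not drawn. The joined points are far apart in most pairs of KMS-11 and KMS-12 and close together in RPMI8226.

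Members were also described by the length of their transcript model. The 17 tested members whose longest GENCODE 29 transcript has at least 1000 bases had a median log2 fold change of -0.66 in KMS-11, of -1.03 in KMS-12 and, in RPMI8226, of 1.12, and the 34 with shorter models had -1.60, -1.92 and 1.39. In KMS-11, 5 of the 17 fell and 1 rose, and 19 of the 34 fell. Without the first and the second KMS-11 DMSO library, 10 and 3 of the 17 fell there and 25 and 18 of the 34. In KMS-12, 9 of the 17 fell and 2 rose, and 24 of the 34 fell and 1 rose. H2AC6 (longest model 1668 bases), H2BC21 (2194), H2BC6 (2585) and H4C16 (1918) are on the long side and fell in neither KMS line. Also on the long side are H3C8 (2411), H2BC7 (1196), H2BC9 (2060), H4C9 (1294) and H2BC15 (4137), which fell in both KMS lines. H3C2 has no model in GENCODE 29. This division was made after the values were seen and is given as a description, with no test; the counts do not separate short stem-loop transcripts from long ones.

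The difference between the lines' responses was tested directly. For 42 of the 52 members the JQ1 response differed among the 3 lines (30.1% of all tested genes). RPMI8226 responded more positively than KMS-12 in 41 members (12.3% of all genes) and less positively in 1, H1-6 (11.1%). Against KMS-11 the response of RPMI8226 was more positive in 30 members (6.7% of all genes) and less positive in none (4.72%), also at an unadjusted p under 0.05, by DESeq2 and by limma-voom. For H2BC13 the RPMI8226 response exceeded that of KMS-12 by 5.69 (SE 0.51, adjusted p = 3.58e-06) and that of KMS-11 by 4.52 (SE 0.47, adjusted p = 3.35e-05) on the log2 scale. For H3C2 the excess was 7.19 (SE 0.82, adjusted p = 0.00114) and 7.29 (SE 0.81, adjusted p = 0.00219). The count against KMS-11 moved with single libraries: it was 37 or 30 without the first or second KMS-11 DMSO library, 12 or 8 without the first or second KMS-11 JQ1 library, 13 or 8 without the RPMI8226 DMSO libraries, and 11 or 17 without its JQ1 libraries.

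Between KMS-12 and KMS-11, 5 of the 52 members differed, all with a lower response in KMS-12 (9.87% of all genes): H2AC6, H2AC15, H2AC16, H2AC20 and H4C11. This count is near the share of all genes and is not read as a result about the members. None had a higher response there (10.1% of all genes) by edgeR, DESeq2 or limma-voom, and 3 did at an unadjusted p under 0.05. For H2AC20 the difference was -0.81 (SE 0.24, adjusted p = 0.0305) and for H2AC6 -0.85 (SE 0.18, adjusted p = 0.00279). This count moved with the settings: 11 members differed by DESeq2 or limma-voom, 16 with library size alone, 8 without a filter on low counts, 18 and 31 without the first and the second KMS-11 DMSO library, and 3 without either KMS-11 JQ1 library, the first library of either KMS-12 group or the first RPMI8226 DMSO library.

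Without JQ1 the lines already differed, and several members were silent or nearly so in 1 line. With DMSO, 33 members were lower in RPMI8226 than in KMS-12 (29.3% of all genes) and 5 higher (33.2%). Against KMS-11, 23 were lower in RPMI8226 (28.2% of all genes) and 5 higher (30.0%). KMS-12 was higher than KMS-11 in 16 members (30.2% of all genes) and lower in 4 (32.7%). The count of 16 is near its share of all genes and is not read as a result about the members. H3C7 had 8.51 and 35.9 CPM in KMS-11 and 162 and 163 CPM in KMS-12 and no read in the 4 RPMI8226 libraries, at least 318-fold and at least 2408-fold lower against a floor of 3 reads over the group. It fell in KMS-12 to 4.19 and 4.95 CPM, -5.15 (SE 0.81, adjusted p = 0.00751). H1-5 had 1 read in RPMI8226 with DMSO against 39.3 and 38.3 CPM in KMS-12, and H2BC9, H2BC14 and H2AC16 had 4, 2 and 1 reads there. KMS-11 in turn had no read of H2AC25, at least 237-fold below KMS-12 and at least 459-fold below RPMI8226. H4C1 had 2.05 and 5.90 CPM in KMS-11 and 0.0713 and 0.0364 CPM in KMS-12. Counts against KMS-11 moved with its DMSO libraries: 38 members differed from KMS-12 without the second, and 43 from RPMI8226 without the first.

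Other genes of the histone supply were read from lists, in the order KMS-11, KMS-12 and RPMI8226, with the shares of all genes as given above. These lists, and those of S phase, mitosis and replacement histone genes below, were chosen with earlier results of these data known. Of 12 genes for histone gene transcription, 5, 4 and 7 rose and 4, 3 and 0 fell; for the 0, edgeR at an unadjusted p under 0.05, DESeq2 and limma-voom also found 0. NPAT, the coactivator of the histone locus body, had log2 fold changes of 0.21, 0.50 and 0.55, CASP8AP2, also a part of that body, 0.32, 0.21 and 0.74, and HINFP, which binds H4 promoters, 0.39, 0.47 and 0.04; the KMS-12 values of all 3 and the KMS-11 value of NPAT changed sign with library size alone, and HINFP's in RPMI8226 at a mean of at least 10 CPM or without the second RPMI8226 JQ1 library. Called among these were NPAT in KMS-12 and RPMI8226, CASP8AP2 in KMS-11 and RPMI8226 and HINFP in both KMS lines. CDK2, the kinase that acts on NPAT, fell in KMS-11 and KMS-12 and rose in RPMI8226, with log2 fold changes of -1.26, -0.77 and 0.65. E2F1, the transcription factor of S phase entry, did likewise (-2.0, -2.97 and 0.91). CDC25A, the phosphatase that activates CDK2, fell in both KMS lines (-4.33 and -3.53). CCNE1, a cyclin E, fell in KMS-11 and rose in RPMI8226 (-0.79, -0.27 and 2.10), and CCNE2, the other cyclin E, rose in both of these lines (1.43, -0.37 and 1.26). Of these 12 genes, 4 and 5 rose and 5 and 3 fell in KMS-11 without the first and the second KMS-11 DMSO library.

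Of 28 genes for processing and decay of histone mRNA, 27 were tested; 2, 7 and 5 rose and 6, 6 and 7 fell. In KMS-11, 1 and 5 rose and 7 and 5 fell without the first and the second DMSO library. SLBP had changes of -0.93, 0.70 and 0.88 (SE 0.34, 0.34 and 0.35), none called, and its KMS-12 value changed sign with library size alone. The terminal uridylyltransferase TUT4 fell in KMS-11, -0.52 (SE 0.09, adjusted p = 1.62e-04), and in RPMI8226, -0.39 (SE 0.09, adjusted p = 0.00251), and had 0.34 (SE 0.09, adjusted p = 0.00454) in KMS-12, a sign that turned with library size alone. CTIF, a cap-binding translation factor, fell in all 3 lines (-0.50, -0.53 and -0.51). In KMS-12 the exonuclease XRN1 rose by 1.23 (SE 0.10, adjusted p = 1.66e-08), the cap-binding complex partner SRRT by 1.05 (SE 0.11, adjusted p = 6.96e-07) and the helicase UPF1 by 0.87 (SE 0.10, adjusted p = 1.81e-06). XRN1 fell in RPMI8226 (-0.42). Of 25 histone chaperones and carriers, 7, 6 and 15 rose and 7, 9 and 0 fell; for the 0, 1 was lower at an unadjusted p under 0.05 and 0 by DESeq2 or limma-voom. Without the same libraries, 5 and 10 chaperones rose and 9 and 6 fell in KMS-11. CHAF1A, the large subunit of the replication-coupled chaperone CAF-1, fell in the KMS lines and rose in RPMI8226 (-2.13, -2.17 and 1.03), as did TONSL, which reads newly made chromatin (-1.67, -1.12 and 0.94). SUPT16H, a FACT subunit, rose in RPMI8226 by 1.04 (SE 0.10, adjusted p = 4.59e-07), and CABIN1, of the HIRA complex, rose in all 3 lines (0.37, 0.82 and 0.58).

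Genes of DNA replication, whose RNA is also highest around S phase, were read beside the members. Of 40 S phase genes, 36 fell and none rose in KMS-11, 29 fell and 1 rose in KMS-12, and 28 rose and none fell in RPMI8226; for both counts of none, edgeR at an unadjusted p under 0.05, DESeq2 and limma-voom also found 0. Without single libraries, 30 to 40 fell in KMS-11, 25 to 31 fell in KMS-12, and the number that rose in RPMI8226 was 11 to 36. Their summed level was 2.68 (1.98 with the first KMS-11 DMSO library alone) and 1.74 times lower in KMS-11 and KMS-12 and 1.78 times higher in RPMI8226. The initiation factors CDC6 (-3.73, -2.05 and 0.66) and CDC45 (-5.52, -4.21 and 0.95) and the helicase subunit MCM4 (-1.68, -0.88 and 1.25) each fell in both KMS lines and rose in RPMI8226. Of 20 mitosis genes, 2 rose in RPMI8226. This count does not exceed the share of all genes that rose there (13.6%) and is not read as a result about mitosis genes. In KMS-11 and KMS-12, 20 and 19 fell, and none rose by any of the 3 tools or at an unadjusted p under 0.05. Without single libraries, 18 to 20 and 14 to 19 fell there and 0 to 12 rose in RPMI8226. Their sum was 15.1 and 8.03 times lower in the KMS lines (7.63 in KMS-11 with the first DMSO library alone) and 1.67 times higher in RPMI8226. UBE2C, a ubiquitin-conjugating enzyme of mitotic exit, had -5.56 (SE 0.61, adjusted p = 1.37e-04) in KMS-11 and -4.42 (SE 0.60, adjusted p = 3.52e-04) in KMS-12, and the kinase AURKB rose in RPMI8226 by 1.30 (SE 0.42, adjusted p = 0.0438). The part of fewer dividing cells in the members' changes was not tested.

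Replacement histones are made outside S phase too and most have polyadenylated mRNA. Of 12 replacement or polyadenylated histone genes 10 were tested; 3, 6 and 8 rose and 2, 3 and 0 fell, the 0 also at an unadjusted p under 0.05, by DESeq2 and by limma-voom. In KMS-11, 1 and 5 rose without the first and the second DMSO library. H3-3A, a gene of the replacement histone H3.3, rose in all 3 lines by 0.29, 0.90 and 0.59. H2AX, the H2A variant of DNA damage signalling, rose in RPMI8226 by 2.13 (SE 0.26, adjusted p = 9.50e-05) and in KMS-12 by 0.67, a sign that turned with library size alone. H2AZ1 fell in the KMS lines and rose in RPMI8226 (-1.06, -0.70 and 0.56), and CENPA, the H3 of centromeres, fell in KMS-11 and KMS-12 (-4.83 and -3.13). The sum of this list was 1.26, 1.46 and 1.86 times its DMSO level. As a sign of how well RNA without a poly(A) tail was captured, 7 of 14 other such RNAs were tested, and 3, 2 and 3 rose and none fell by any of the 3 tools or at an unadjusted p under 0.05; without the second KMS-11 DMSO library 1 rose there. Their sum was 1.78, 1.35 and 1.45 times higher with JQ1, with overlapping groups in KMS-12. SNORD3B-1, a nucleolar RNA, rose by 3.91, 1.66 and 2.51.

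**Figure D5:**
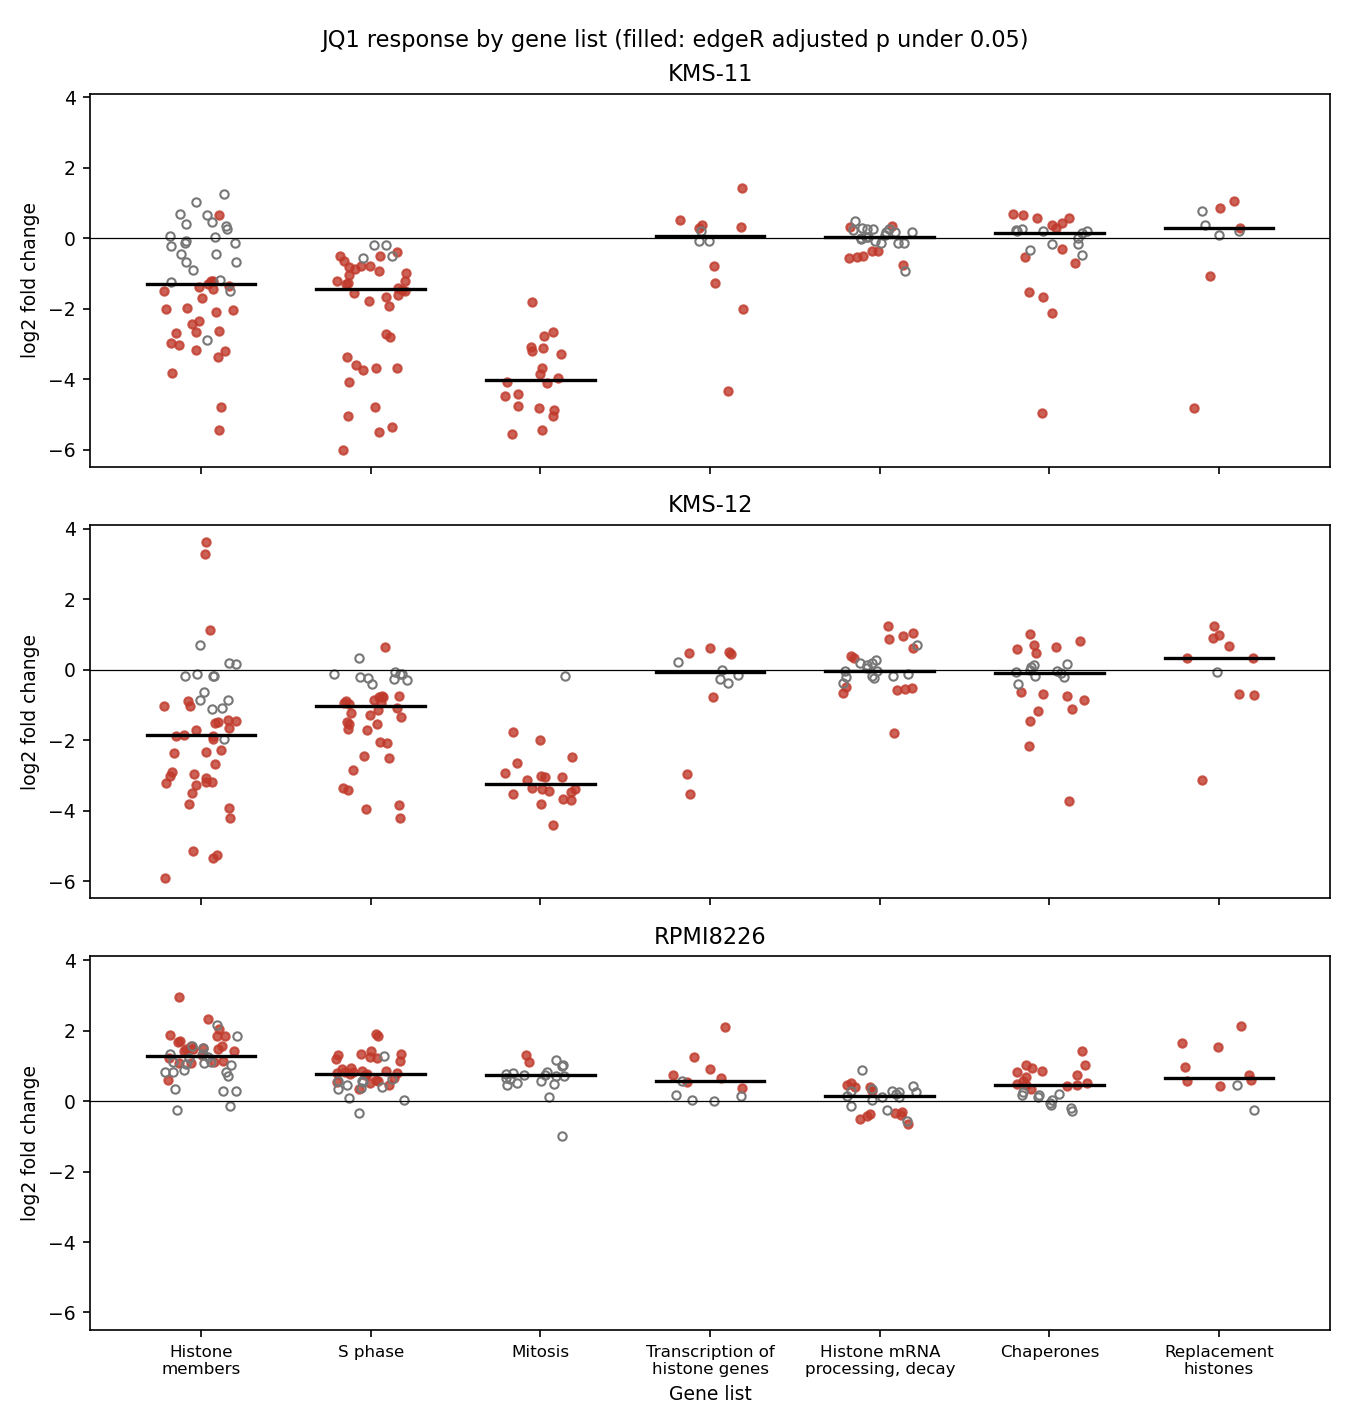
Log2 fold change with JQ1 of the tested histone members and of 6 gene lists in each line; each point is a gene with over 3 reads in both groups, filled where the edgeR adjusted p is under 0.05, and bars are medians. Members, S phase and mitosis genes lie mostly below 0 in KMS-11 and KMS-12 and above 0 in RPMI8226, while the medians of the transcription, processing and chaperone lists are near 0 in the KMS lines.

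The scaling moved the sign of some changes. With library size alone in place of the trimmed mean of M-values (TMM), the median of all genes shifted by -0.25 in KMS-11, by -0.76 in KMS-12 and, in RPMI8226, by -0.03. The share of all called genes that were higher went from 45.0% to 23.8% in KMS-11 and from 44.0% to 7.49% in KMS-12, and for the differences from 50.6% to 13.5% (KMS-12 against KMS-11), from 58.7% to 81.3% (RPMI8226 against KMS-11) and from 52.7% to 92.6% (RPMI8226 against KMS-12). With that scaling KMS-11 had 1 member higher and 30 lower, KMS-12 had 2 higher and 44 lower, and RPMI8226 had 27 higher and 0 lower. Read sharing between near-identical genes also limits single members. Of the 64 members with a model, 27 had no 50-base window in another annotated gene and 12 had over 50% of their windows in one, among them H2AC13, H2AC14, H2AC17, H4C11 and H4C12. H2BC5, H2BC18, H2BC15, H2AC7, H2AC16, H2AC17 and H3C12 overlap an annotated gene on their own strand, and H2AC15, H2AC21, H2BC6 and H4C14 overlap one on the other strand.

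The 14 members with too few reads for the test had the following totals over the 12 libraries. H2AC1 and H2BC1, the testis pair, had no read, which allows at most 3 in all. H4C6 and H4C13 had 1 read each, H3C11 and H4C7 3 each, H3C3 9, H3C14 10, H3C1 12, H1-1 13, H3C15 15, H4C15 20, H3C6 38 and H2BC3 43. The most in any 1 library was 11, for H3C6. H3C14, H3C15 and H4C15 share nearly all of their model with a second gene copy.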

How the data were processed

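RNA was measured by stranded total RNA sequencing after removal of ribosomal RNA in 12 libraries, 2 for each of 3 myeloma lines with DMSO or JQ1, per the labels' protocols. The authors deposited 1 table of raw read counts for 60666 gene IDs, of which 99.6% were matched to a symbol. The submitters' processing notes name DESeq2, MACS2, hg38 and GRCh38.p13 without a role; the aligner, the counter and the strand setting used in counting: not given in the sources used here. No column of the table was left unmapped.

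The deposited counts were tested with edgeR 4.0.16 in R 4.3.3: filterByExpr with a minimum count of 10 and a minimum total of 15, TMM scaling, a mean for each of the 6 groups, a robust quasi-likelihood fit and Benjamini-Hochberg adjustment over the 23493 genes tested, with a threshold of 0.05. The 3 lines share 1 estimate of the spread. The standard error (SE) was taken as the size of a fitted log2 fold change over the root of its F value. CPM use the TMM-scaled library sizes. A fold against a group without reads is a lower bound at a floor of 3 counts over the group; floors and sums cover counting error only, since the reads carry no molecular identifiers that were used here.

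The genes named in full were, within each histone type, the 3 with the highest mean CPM, in each line the 3 with the smallest adjusted p in each direction, and the 3 whose responses differed between lines at the smallest p. Other members and list genes were named to describe their group. The members and lists were chosen with earlier results of these data known. Alternatives were DESeq2 1.42.0, limma 3.58.1 with voom, library size alone, no filter, a mean of at least 10 CPM, a replicate block and leaving out each library. In a simulation, each gene had the same mean in every group, taken over the 3 lines, and a spread fitted to all libraries. Changes were planted only in the KMS-11 libraries with JQ1, in genes above a count floor. On these counts (21500 genes), the edgeR steps called 19.4% of the genes with a 1.5-fold change, 67.2% at 2-fold and 92.4% at 4-fold, and 7.03% of calls were false. The wider spread of the KMS-11 DMSO libraries was not simulated. Sequences come from GENCODE 29 transcripts and, for promoters, from RefSeq (GRCh38.p14). Counts without H3C4, and sums with 1 KMS-11 DMSO library alone, were chosen after seeing the data.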

Additional observations from a re-analysis of the deposited data

Results flagged for a closer look

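With 2 libraries a group, no library could be tested as an outlier. For 21 of the members named in full, the JQ1 response differed between the 3 lines by edgeR's test over 2 contrasts. The adjusted p was 3.32e-06 for H2BC26, 3.9e-06 for H2BC13, 2.76e-05 for H2AC21 and 4.18e-05 for H2AC20. It was 0.000409 for H2AC25, 0.00058 for H3C13, 0.00106 for H3C2, 0.00125 for H4C8 and 0.00169 for H2AC16. It was 0.0026 for H2AC6, 0.00291 for H3C8, 0.00366 for H2BC4, 0.00731 for H3C10 and 0.00764 for H1-4. Nearer the threshold were H4C5 (adjusted p = 0.0171), H2AC11 (0.0178), H1-6 (0.033), H1-2 (0.0403), H1-3 (0.0432), H2BC5 (0.0439) and H4C16 (0.0477).
H1-3 and H4C16 were among these although neither was called in any single line. For H2BC26 and H2AC25 the test includes KMS-11, where they had 2 and 0 reads.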

How the results depend on the processing

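Over 206 log2 fold changes, 3883 alternative values kept their direction and side of the threshold, 145 passed it where the reported value did not, 227 no longer passed it and 34 changed sign. Leaving out 1 library at a time, the number of members called ranged from 1 to 4 higher and 9 to 36 lower in KMS-11, 3 to 4 higher and 26 to 39 lower in KMS-12, and 10 to 40 higher and 0 lower in RPMI8226. Differing responses ranged from 3 to 31 (KMS-12 and KMS-11), 8 to 37 (RPMI8226 and KMS-11), 30 to 45 (RPMI8226 and KMS-12) and 30 to 47 (any), and differing DMSO levels from 14 to 38, 21 to 43 and 28 to 42 in the same order of pairs. In these fits the lone library of a group is assumed to vary like the other groups. Higher calls in KMS-11 were 3 with limma-voom and 3 with the replicate block within lines, and in KMS-12 0 at a mean of at least 10 CPM. The differing response of KMS-12 and KMS-11 was called in 16 members with library size alone, 8 with no filter, 11 with DESeq2, 11 with limma-voom and 10 with the replicate block, and their DMSO levels in 31 with limma-voom; the cause was not tested.

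The samples share only a replicate number: the differences between replicates 1 and 2 correlated between a line's groups at 0.106, 0.0122 and 0.104, so the numbers were not taken as pairs. With the replicate block within lines, KMS-11 had 3 members higher and 19 lower, KMS-12 had 3 and 32, and RPMI8226 had 29 and 0; with a block across lines the counts were 1 and 22, 3 and 33, and 24 and 0.

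The following log2 fold changes changed sign. With library size alone they were, in KMS-12, -0.596 for H2BC21, -0.590 for H3C13, -0.0739 for H2AC7, -0.0688 for SLBP, -0.275 for NPAT, -0.562 for CASP8AP2, -0.302 for HINFP, -0.431 for TUT4, -0.105 for H2AX and -0.344 for RN7SL1, and in KMS-11 -0.183 for H2BC18, -0.213 for H2AC15 and -0.0448 for NPAT. H2BC8 in KMS-11 was 0.0276 with limma-voom, and HINFP in RPMI8226 was -0.0141 at a mean of at least 10 CPM. In KMS-11, the first and the second DMSO library gave the 2 ends of the range over left-out libraries for these genes: from -0.491 to 0.36 for H1-4 (0.0187 without the second JQ1 library), from -1.47 to 0.0246 for H1-2, from -0.491 to 0.108 for H2AC20, from -0.537 to 0.436 for H2BC5, from -0.767 to 0.0012 for H4C8, from -0.889 to 0.237 for H3C13, from -0.534 to 0.565 for H2BC8 (0.0133 without the second JQ1 library), from -1.82 to 0.0385 for H3C12, from -0.387 to 0.723 for H2BC18 and from -0.0189 to 0.896 for H2AX. The JQ1 libraries did so from -0.467 to 0.409 for H2AC15 (-0.082 without the first DMSO library) and from -0.374 to 0.883 for H2AC7 in KMS-11, from -0.704 to 1.38 for H2AC7 in KMS-12, and in RPMI8226 from -0.578 to 1.76 for H4C14 and from -0.0845 to 0.165 for HINFP. H1-6 in RPMI8226 ranged from -0.0904 to 0.777 with its DMSO libraries. Depth limits the members with 3 reads or fewer in a group, for which no fold is given other than a bound.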
